A study of Homo sapiens with 18 samples.

Results

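The response of B11 cells to 1 ug/ml doxycycline was compared here, gene by gene, with the response of the parent line THP1 to the same dose. For each gene the measure is a difference of differences on a log2 scale, B11 at 1 ug/ml minus untreated B11, minus THP1 at 1 ug/ml minus untreated THP1. Expression was given as FPKM, fragments counted per kilobase of a gene and scaled to library depth, and was taken as log2(FPKM + 1). The rule kept genes that reached 1 FPKM in 3 or more of the study's 18 libraries, which left 17555 of 60658 gene IDs. The comparison uses 12 of the 18 libraries, 3 in each of 4 groups. The 4 groups are B11 at 1 ug/ml, untreated B11, THP1 at 1 ug/ml and untreated THP1. THP1, a monocytic line from human acute myeloid leukaemia, carries a heterozygous NRAS G12D mutation, per the labels. B11 was made from THP1 with a lentiviral, doxycycline-inducible and CRISPR-resistant NRAS G12V together with GFP, and then with Cas9, a puromycin resistance gene and a pair of guides placed around the start codon of NRAS. The labels give B11 as heterozygous for NRAS G12V at each dose. B11 is 1 clone, and each line was grown out and divided into 9 plates, of which 3 received each of 0, 1 and 10 ug/ml for 5 days. The plates of a group are therefore divisions of 1 culture, and every p-value rests on the spread between such plates alone. THP1 carries neither the inducible vector nor GFP nor Cas9, so subtracting its response removes what the drug does in the parent line and not what a vector without NRAS would do.

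NRAS is a small GTPase that switches on growth signals when bound to GTP, chiefly the kinases RAF, MEK and ERK and the PI3K pathway, and mutations such as G12D and G12V hold it in the active state. Active ERK raises transcription of growth factors and cyclins, and also of phosphatases and Sprouty proteins that limit the same cascade. Genes of the cell cycle, of ribosome and lipid synthesis and of the unfolded protein response commonly move with such growth signals, while monocytic leukaemia cells that stop dividing tend to take on genes of mature macrophages. A correction with the parent line is needed because doxycycline inhibits translation in mitochondria and can by itself change expression.

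Replicate libraries of a group had Pearson correlations of 0.938 to 0.957 across the genes tested, and depth was estimated at 11.2 to 16.2 M fragments per library. Library B of untreated B11 stood apart from A and C. Genes of the ATF4 stress response lay in it by a median of 0.71 above the mean of the other libraries of its group on the log2 scale, and 34 of 37 were highest there. Cytosolic aminoacyl-tRNA synthetases lay by a median of 0.40 above that mean in the same library. Counts and medians of these lists, and the differences of some ATF4 genes, are therefore given with and without library B. Other single genes of the lists are given with it only. Genes encoded by mitochondrial DNA lay in library A of untreated B11 by a median of 0.35 above the mean of B and C, and 14 of 15 were highest there. At 1 ug/ml in B11, 1 unnamed gene ID held 6.51% of the FPKM sum of library B and 3.76% of that of library C and was near 0 elsewhere, and counts without both libraries are given among the alternatives. Of 10 markers of the myeloid line all were tested. Their summed level was 1726 to 1774 FPKM in B11 at 1 ug/ml and 4403 to 5655 FPKM in untreated B11. In THP1 the sum was 1849.6 to 1922 FPKM at 1 ug/ml and 1759 to 1898 FPKM without drug. LYZ and CD68, at means of 2780 and 1400 FPKM, made up most of the sum in untreated B11. ITGAM and FCGR1A went the other way, with means of 3.37 and 21.4 FPKM in untreated B11 and 27.9 and 68.7 FPKM at 1 ug/ml. In the corrected difference 2 of the 10 markers were higher and 4 lower. Of 13 markers of T, B, red, epithelial, fibroblast and endothelial cells, 4 were tested and none was called. Their summed level was 3.05 to 5.67 FPKM in B11 at 1 ug/ml, 3.86 to 4.41 FPKM in untreated B11, 7.15 to 9.06 FPKM in THP1 at 1 ug/ml and 6.78 to 9.78 FPKM in untreated THP1. CD3E, MS4A1, HBB and COL3A1 averaged 0 FPKM in each of the 4 groups. In RNA of whole cultures, fewer cells of a state and less RNA per cell cannot be told apart.

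NRAS itself, at chr1:114704469-114716894 on the minus strand of GRCh38, is the gene that was edited and reintroduced. NRAS was at 24.4, 23.7 and 23.3 FPKM in B11 at 1 ug/ml (libraries A, B and C in this order, as throughout) and at 19.8, 21.98 and 21.1 FPKM in untreated B11. NRAS was at 23.2, 21.5 and 25.5 FPKM in THP1 at 1 ug/ml and at 23.7, 23.01 and 23.2 FPKM in untreated THP1. All 3 treated B11 libraries lay above all 3 untreated B11 libraries, while the THP1 groups overlapped. The corrected difference was 0.17 (SE 0.10, adjusted p = 0.23), which did not pass the threshold of 0.05, with 0.18 (SE 0.07, adjusted p = 0.0607) in B11 and 0.00 (SE 0.07, adjusted p = 1) in THP1. The table gives 1 value per gene, so it cannot be split between the transgene and the edited gene, and it does not check the induction or the edit. All adjusted p-values in the text are from limma, adjusted by Benjamini-Hochberg over the 17555 genes.

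The responses of the lines differed at 4544 genes, 25.9% of those tested. In 2509 genes, 14.3%, the corrected response was higher, and in 2035, 11.6%, it was lower. A corrected change of at least 2-fold was seen in 1182 of the higher and 885 of the lower genes. Scaling every library to the same total, or TPM, moved the balance to 2860 higher and 1643 lower, and the same scaling without IDs that reach 10000 FPKM gave 3051 higher and 1573 lower. Most of the change lay in B11. In B11, 6516 genes (37.1%) passed at 1 against 0 ug/ml, and in THP1 2 genes passed (0.0114%), NKD2 higher and IGFBP3 lower (0.0057% each), with 958 at an unadjusted p under 0.05. The THP1 count ran from 0 to 23 over the alternatives. Among the 4544 genes, the median size of the change was 0.85 in B11 and 0.10 in THP1, against 0.40 and 0.13 over all genes tested. The THP1 change was the larger of the pair in 141 of the 4544 genes, and it passed by itself in 1 of them, IGFBP3. No gene had changes that passed in opposite directions in the lines, but with 2 genes passing in THP1 hardly any could.

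**Figure D1:**
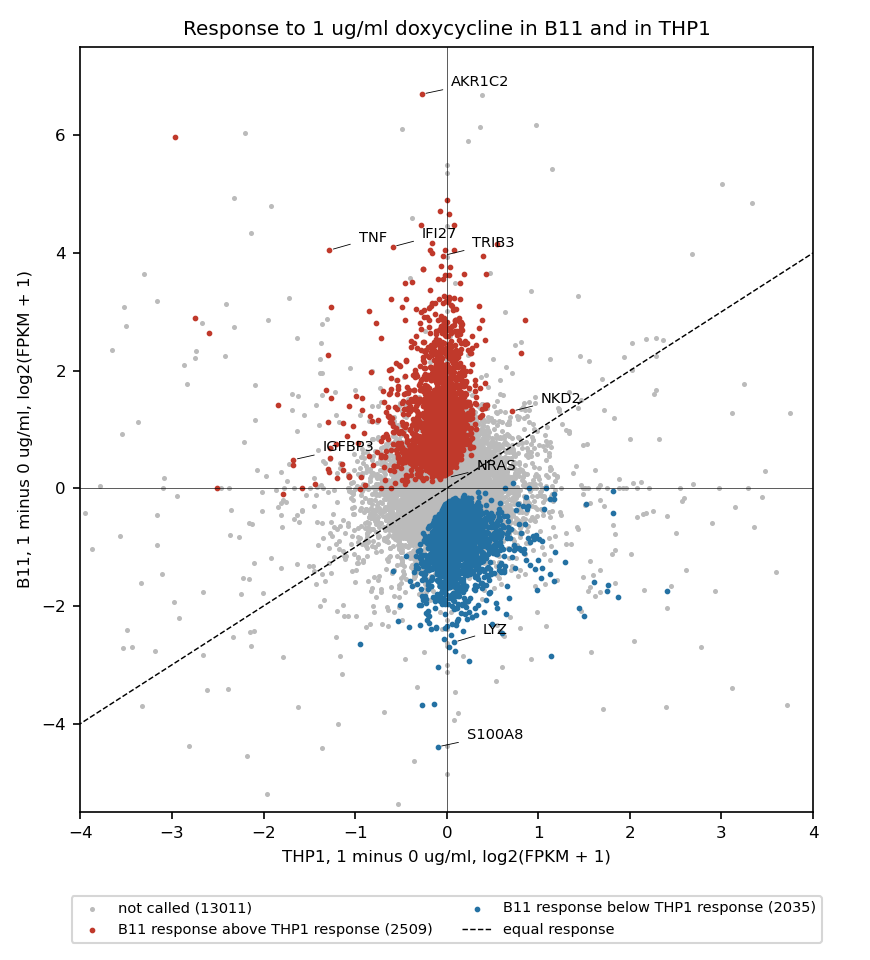
Change at 1 against 0 ug/ml doxycycline in B11 (vertical axis) and in THP1 (horizontal axis), both as differences of mean log2(FPKM + 1), 1 point per gene. Red and blue points are the 2509 and 2035 genes whose corrected difference passed, grey points the rest, and the dashed line marks an equal response. The coloured points spread along the vertical axis and stay near 0 on the horizontal one. The axes leave out 26 genes, 9 of them called.

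IGFBP3 and NKD2 show what the correction does at single genes. IGFBP3, which encodes a binding protein of insulin-like growth factors, was at 0.675, 0.499 and 0.632 FPKM in B11 at 1 ug/ml and 0.0343, 0.447 and 0 FPKM in untreated B11, against 2.60, 1.49 and 1.46 FPKM in THP1 at 1 ug/ml and 7.10, 8.25 and 8.59 FPKM in untreated THP1. The gene was thus nearly silent in B11 and lower in all 3 treated than in all 3 untreated THP1 libraries. Its corrected difference of 2.16 (SE 0.28, adjusted p = 3.82e-05) rested on the THP1 arm, at -1.68 (SE 0.20, adjusted p = 0.00805), while the B11 arm was 0.48 (SE 0.20, adjusted p = 0.0652). NKD2, which encodes an inhibitor of WNT signalling, averaged 27.3 ± 1.80 FPKM in B11 at 1 ug/ml and 10.4 ± 0.588 FPKM in untreated B11, against 17.8 ± 2.05 FPKM in THP1 at 1 ug/ml and 10.4 ± 1.01 FPKM in untreated THP1 (SD, n = 3 each). It rose in both lines, by 1.31 in B11 and 0.71 in THP1, and the corrected difference was 0.60 (SE 0.14, adjusted p = 0.00571).

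Most genes that report on MAPK activity rose in B11 beyond THP1. Of 27 genes of MAPK output and feedback, 20 were tested, 15 were higher where 14.3% of all genes were, none was lower, and their median was 1.41 against -0.02 over all genes tested. The remaining 5 tested members, ELK3, KANK1, PHLPP1, SPRY1 and DUSP2, lay between 0.22 and 0.57 and did not pass. The median was 1.30 in the B11 arm and -0.11 in the THP1 arm, and without library B of untreated B11 13 members were higher. With genes required to average 5 FPKM, 11 members were tested and 8 of them were higher. EGR1, an immediate early transcription factor induced through ERK, was at 21.6, 20.3 and 20.5 FPKM in B11 at 1 ug/ml, 1.30, 1.31 and 1.40 FPKM in untreated B11, 3.07, 2.79 and 3.12 FPKM in THP1 at 1 ug/ml and 5.19, 4.92 and 5.15 FPKM in untreated THP1. The B11 groups lay far apart in one direction and the THP1 groups apart in the other, where the THP1 change did not pass (adjusted p = 0.113), and the corrected difference was 3.83 (SE 0.16, adjusted p = 9.02e-10). DUSP6, a phosphatase that inactivates ERK, was at 22.1, 22.1 and 21.3 FPKM in B11 at 1 ug/ml and 1.40, 1.98 and 1.64 FPKM in untreated B11, against 33.3, 42.2 and 36.5 FPKM in THP1 at 1 ug/ml and 44.5, 38.2 and 43.7 FPKM in untreated THP1. All treated B11 libraries stood above all untreated ones and below every THP1 library, and the THP1 groups overlapped. The corrected difference of DUSP6 was 3.28 (SE 0.19, adjusted p = 1.4e-08). CCND1, which encodes cyclin D1, was at 4.55, 7.13 and 6.30 FPKM in B11 at 1 ug/ml and 0.0179, 0.149 and 0.670 FPKM in untreated B11, with overlapping THP1 groups, and differed by 2.82 (SE 0.37, adjusted p = 5.05e-05). CCND1 overlaps LTO1 on the other strand, and no source used here says whether libraries kept strand, so reads of such partners cannot be told apart. Other pairs of this kind among the genes below are PTPN11 with RPL6, CDK2 with PMEL, CDK4 with TSPAN31, RBL2 with AKTIP and TIMP3 with SYN3. The feedback inhibitor SPRY2 differed by 1.64 (SE 0.14, adjusted p = 7.39e-07), and the transcription factor MYC by 0.70 (SE 0.08, adjusted p = 1.37e-05). The ETS factors ETV5 and ETV4, further targets of ERK, differed by 2.52 (SE 0.79) and 2.03 (SE 0.29).

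**Figure D2:**
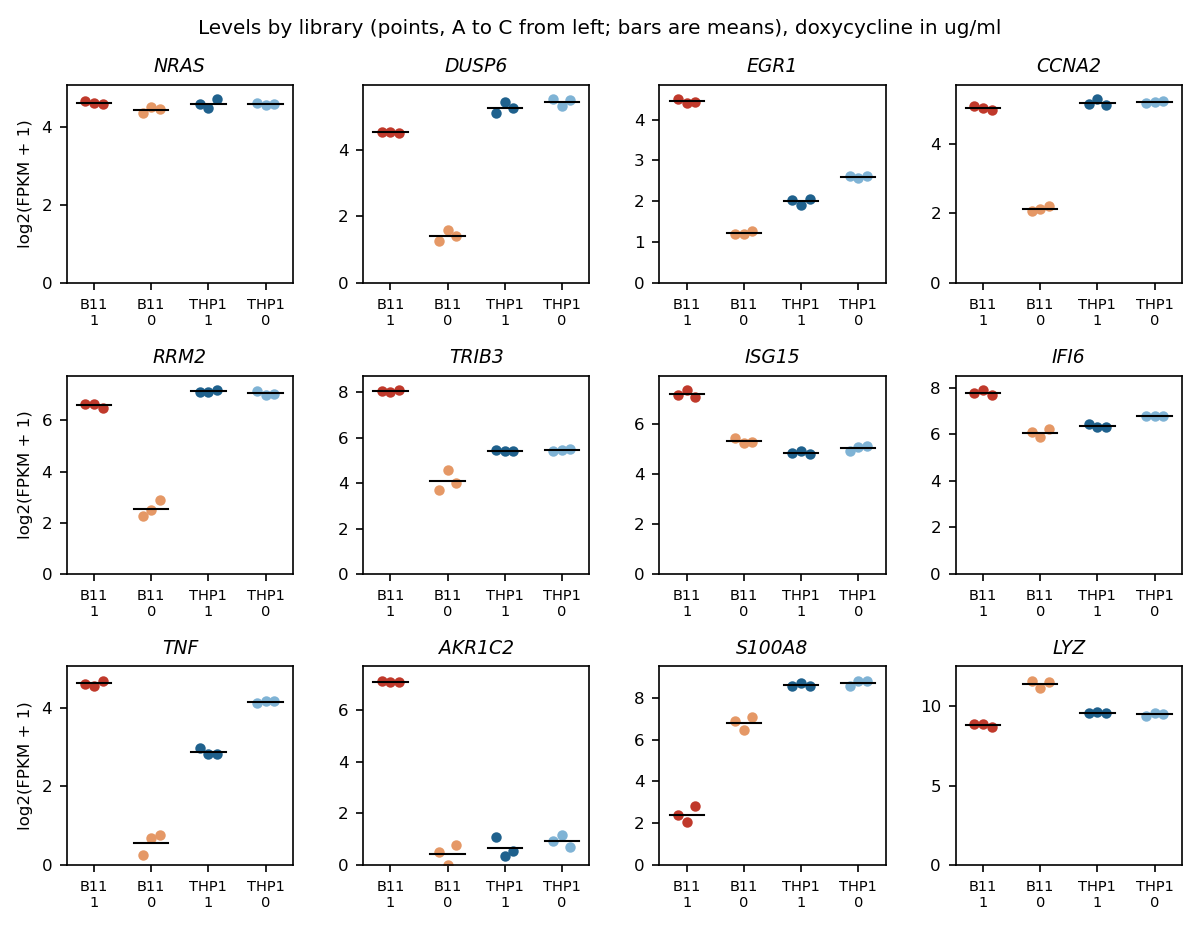
Level of 12 genes in each of the 12 libraries, as log2(FPKM + 1), with libraries A to C from left to right in each group and bars at group means. For NRAS the 4 groups lie close together, whereas for DUSP6, EGR1, CCNA2 and RRM2 untreated B11 is the lowest group, and for S100A8 B11 at 1 ug/ml is.

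The genes that encode the cascade itself had a median near that of all genes. Of 26 components from RAS to ERK, 3 were higher and 8 lower, where 14.3% and 11.6% of all genes were. Their median was 0.06 against -0.02 over all genes tested, and 15 did not pass. The higher count lies near the share of all genes and is not read as a response of this list. The lower count depended on scaling and on single libraries. It was 1 with TPM, where 6 were higher, and 2 to 5 when any 1 library of the 4 groups was left out. PTPN11, which encodes the phosphatase SHP2 upstream of RAS, differed by 0.58 (SE 0.12, adjusted p = 0.00168), and MAP2K1, which encodes MEK1, by 0.57 (SE 0.19). GRB2, an adaptor that brings the exchange factor SOS to receptors, differed by -0.73 (SE 0.15, adjusted p = 0.00168), and SHOC2, a scaffold for RAF activation, by -0.86 (SE 0.30). The relative HRAS was at 0.25 (SE 0.40) and did not pass.

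Every tested gene of DNA replication and mitosis was higher, 40 of 40 on the list, with a median of 2.58. The median was 2.57 in the B11 arm and 0.02 in the THP1 arm, and 39 or 40 members were higher in each alternative. RRM2, the small subunit of ribonucleotide reductase, was at 99.9, 98.2 and 89.02 FPKM in B11 at 1 ug/ml and 3.84, 4.60 and 6.41 FPKM in untreated B11, against 137, 138 and 144 FPKM in THP1 at 1 ug/ml and 140.5, 126 and 131 FPKM in untreated THP1. Untreated B11 stood far below the other 3 groups, treated B11 lay below every THP1 library, and the THP1 groups overlapped. The corrected difference of RRM2 was 3.97 (SE 0.16, adjusted p = 6.64e-10), a factor of 15.6 on the log2(FPKM + 1) scale. CCNA2, the cyclin of S and G2 phase, was at 33.3, 31.9 and 30.2 FPKM in B11 at 1 ug/ml and 3.23, 3.36 and 3.59 FPKM in untreated B11, against 34.4, 37.95 and 33.6 FPKM in THP1 at 1 ug/ml and 35.4, 36.1 and 36.4 FPKM in untreated THP1. It differed by 2.93 (SE 0.10, adjusted p = 2.3e-10), and it overlaps EXOSC9 on the other strand. TPX2, a spindle assembly factor, differed by 2.62 (SE 0.09, adjusted p = 2.3e-10), and the mitotic cyclin CCNB2 by 2.60 (SE 0.11, adjusted p = 6.64e-10). E2F1, a transcription factor of the G1 to S transition, was at 26.6, 26.6 and 25.8 FPKM in B11 at 1 ug/ml and 2.92, 2.71 and 2.70 FPKM in untreated B11, and differed by 2.77 (SE 0.11, adjusted p = 6.64e-10). Mean levels in B11 exceeded those in THP1 for 9 of the 40 genes at 1 ug/ml and for 0 of the 40 without drug. Over all 17555 genes B11 had the higher mean at 8474 at 1 ug/ml and at 9126 without drug.

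E2F factors bind promoters of replication genes at sites close to TTTNGCGC. That motif, searched on both strands, was present in the promoter of 11 of the 33 list members with a listed RefSeq promoter, 33.3%, and in 593 of 27305 genes with one, 2.17%. The windows reach from 250 bases before to 50 bases after the annotated start in GRCh38.p14. MCM6, a subunit of the replicative helicase, is shown since it holds repeated matches, and E2F1 as the gene of an E2F factor itself. Capitals mark the matches, and in MCM6 each capital run holds a match on either strand that overlap one another. The MCM6 stretch is chr2:135876492-135876625 and the E2F1 stretch chr20:33686386-33686435, both given on the minus strand, 5′ to 3′. A match is a description of the letters and not evidence of binding.
MCM6: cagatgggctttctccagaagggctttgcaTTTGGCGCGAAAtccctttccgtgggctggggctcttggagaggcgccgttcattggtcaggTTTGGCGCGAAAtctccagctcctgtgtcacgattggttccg
E2F1: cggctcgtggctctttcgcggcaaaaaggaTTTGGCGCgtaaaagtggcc

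Regulators of entry into the cell cycle were also mostly higher. Of 15 CDK inhibitors, G1 cyclins and retinoblastoma proteins, 14 were tested, 10 were higher and 1 was lower, with a median of 0.97. CDK2 differed by 1.10 (SE 0.15, adjusted p = 6.23e-05) and CDK4 by 0.98 (SE 0.12, adjusted p = 1.74e-05). CDKN1A, which encodes the inhibitor p21, was at 54.04, 59.6 and 58.1 FPKM in B11 at 1 ug/ml and 9.58, 9.44 and 12.3 FPKM in untreated B11, against 27.2, 27.6 and 29.7 FPKM in THP1 at 1 ug/ml and 32.4, 32.9 and 29.9 FPKM in untreated THP1. Treated B11 held the highest and untreated B11 the lowest level of the 4 groups, and the corrected difference was 2.52 (SE 0.16, adjusted p = 2.89e-08). RBL2, the retinoblastoma relative p130 of quiescent cells, was the lower gene, at -0.88 (SE 0.13, adjusted p = 0.000142).

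Most listed genes of ribosome assembly and of mitochondrial translation rose, by smaller amounts, while 15 of 30 cytosolic ribosomal proteins fell. Of 30 MYC targets and ribosome biogenesis genes, 23 were higher and none was lower, with a median of 0.72. NCL, which encodes nucleolin, was at 748, 716 and 694 FPKM in B11 at 1 ug/ml and 394, 387 and 397 FPKM in untreated B11, with overlapping THP1 groups, and differed by 0.97 (SE 0.07, adjusted p = 6.86e-08). The nucleoside diphosphate kinase NME1 differed by 1.85 (SE 0.13, adjusted p = 8.9e-08), and the polyamine enzymes ODC1 and SRM by 1.57 (SE 0.14) and 1.17 (SE 0.09). NME1 shares sequence with a read-through transcript of the neighbouring NME2. Of 30 genes of the mitochondrial ribosome, 20 were higher and none was lower, with a median of 0.58 and MRPL12 at 0.75 (SE 0.08, adjusted p = 7.25e-06). In a fit that drops libraries B and C of treated B11, leaving 1 library in that group, 12 were higher. Of 27 proteasome subunits, 18 were higher and none was lower, with a median of 0.49 and the base subunit PSMC3 at 1.29 (SE 0.10, adjusted p = 3.35e-07). Of 30 cytosolic ribosomal proteins, 15 were lower and none was higher, with a median of -0.25, while TPM gave 13 lower, 3 higher and a median of -0.16, or -0.13 without IDs that reach 10000 FPKM. RPL11 was at 2245, 2389 and 2314 FPKM in B11 at 1 ug/ml and 3438, 3527 and 3629 FPKM in untreated B11, without overlap, and differed by -0.62 (SE 0.09, adjusted p = 0.000106).

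The ATF4 programme, by which cells raise amino acid synthesis and uptake when initiation of translation is restrained, held some of the steepest rises. Of 38 genes, 37 were tested, 35 were higher and none was lower, with a median of 2.23 in the difference, 2.26 in B11 and 0.02 in THP1. Without library B of untreated B11 the count was again 35 and the median 2.49. ALDH18A1 and VLDLR did not pass, at 0.02 (SE 0.21) and -0.08 (SE 0.11). TRIB3, a pseudokinase induced by ATF4, was at 264, 254 and 271 FPKM in B11 at 1 ug/ml and 12.03, 22.6 and 15.03 FPKM in untreated B11, against 42.6, 42.1 and 41.5 FPKM in THP1 at 1 ug/ml and 41.8, 43.6 and 44.5 FPKM in untreated THP1. Treated B11 lay above every other library and untreated B11 below, and the difference was 3.99 (SE 0.21, adjusted p = 4.53e-09), or 4.23 (SE 0.12) without library B. PHGDH, the entry enzyme of serine synthesis, was at 598, 598 and 579.9 FPKM in B11 at 1 ug/ml and 10.99, 121 and 11.8 FPKM in untreated B11, against 131, 145 and 138 FPKM in THP1 at 1 ug/ml and 127, 132 and 132 FPKM in untreated THP1. Library B of untreated B11 lay close to the THP1 libraries and A and C far below them. The difference of PHGDH was 4.40 (SE 0.82, adjusted p = 0.00102), and 5.50 (SE 0.10, adjusted p = 3.51e-13) without library B.

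The same split of untreated B11 ran through other ATF4 genes. CHAC1, which degrades glutathione, was at 61.8, 67.5 and 68.6 FPKM in B11 at 1 ug/ml and 0.327, 9.10 and 0.250 FPKM in untreated B11, and differed by 4.79 (SE 0.77, adjusted p = 0.000285), or 5.78 (SE 0.23) without library B. PSAT1, the next enzyme of serine synthesis, differed by 4.08 (SE 0.64, adjusted p = 0.000232), or 4.93 (SE 0.10), and the amino acid carrier SLC7A5 by 4.63 (SE 0.52, adjusted p = 1.03e-05), or 5.31 (SE 0.13). DDIT4, an inhibitor of mTORC1, was at 181, 173 and 177 FPKM in B11 at 1 ug/ml and 11.1, 12.5 and 13.9 FPKM in untreated B11, with no split, and differed by 3.99 (SE 0.21, adjusted p = 4.53e-09) with library B and by 3.99 (SE 0.23) without it. MTHFD2 of mitochondrial folate metabolism differed by 2.72 (SE 0.20, adjusted p = 1.14e-07), the alanine transaminase GPT2 by 3.71 (SE 0.32, adjusted p = 7.02e-07), and the leucine sensor SESN2 by 2.31 (SE 0.18, adjusted p = 3.16e-07). ATF4 itself differed by 1.46 (SE 0.25, adjusted p = 0.000571), or 1.79 (SE 0.07) without library B. Mean levels in B11 exceeded those in THP1 for 36 of 37 list members at 1 ug/ml and for 9 of 37 without drug. DDIT4 and SLC7A5 overlap antisense genes, and MTHFD2 overlaps SLC4A5 on the other strand.

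**Figure D3:**
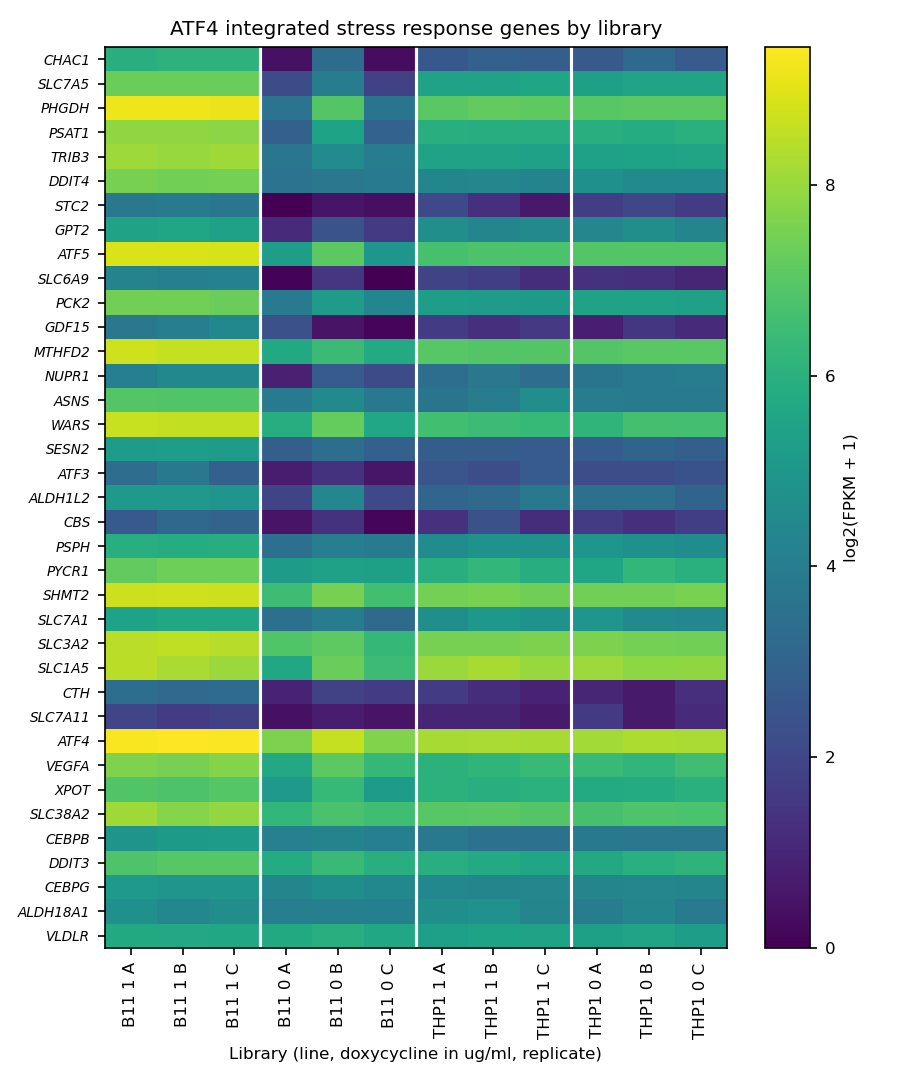
Level of 37 ATF4 genes in each of the 12 libraries, as log2(FPKM + 1) by colour, with genes ordered by their corrected difference. The 3 libraries of B11 at 1 ug/ml are brightest in most rows, and within untreated B11 library B is brighter than A and C, for example for PHGDH at 10.99, 121 and 11.8 FPKM in A, B and C.

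The ATF4 response element was searched as TGATGNAA on both strands. It was found in the promoter of 7 of the 28 list members with a listed promoter, 25%, and of 1217 of all 27305 genes, 4.46%. CHAC1 and ASNS are shown as a strongly induced member and the asparagine synthetase gene, at chr15:40953232-40953299 on the plus strand and chr7:97872439-97872506 on the minus strand of GRCh38.p14 (RefSeq), with the match in capitals. ASNS differed by 2.69 (SE 0.29, adjusted p = 6.73e-06). In CHAC1 the match reads on the other strand.
CHAC1: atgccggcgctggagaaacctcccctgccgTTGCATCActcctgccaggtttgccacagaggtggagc
ASNS: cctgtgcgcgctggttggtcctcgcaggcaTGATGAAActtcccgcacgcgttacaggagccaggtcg

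Most cytosolic aminoacyl-tRNA synthetases, which load amino acids onto tRNA, rose too. Of 20 genes, 18 were higher and none was lower, with a median of 0.96. Without library B of untreated B11 17 were higher and the median was 1.11. GARS was at 373, 479 and 402 FPKM in B11 at 1 ug/ml and 61.1, 114 and 71.1 FPKM in untreated B11, with library B again the highest of the untreated ones, and differed by 2.43 (SE 0.28, adjusted p = 1.27e-05). FARSB differed by 1.20 (SE 0.10, adjusted p = 8.39e-07), NARS by 1.10 (SE 0.11, adjusted p = 3.23e-06), VARS by 0.91 (SE 0.13, adjusted p = 0.000136) and SARS by 0.91 (SE 0.14, adjusted p = 0.000188).

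Most listed chaperones of the endoplasmic reticulum and of mitochondria rose. Of 30 genes of endoplasmic reticulum chaperones, the unfolded protein response and heat shock, 22 were higher and none was lower, with a median of 0.83. HSPA5, or BiP, which folds proteins entering the endoplasmic reticulum, was at 168, 165 and 164 FPKM in B11 at 1 ug/ml and 70.7, 64.02 and 64.9 FPKM in untreated B11, against 209.7, 220.1 and 212 FPKM in THP1 at 1 ug/ml and 208, 229.6 and 226 FPKM in untreated THP1. Treated B11 stayed below every THP1 library, and the corrected difference was 1.35 (SE 0.08, adjusted p = 1.35e-08). XBP1, a transcription factor of the unfolded protein response, differed by 2.07 (SE 0.14, adjusted p = 5.59e-08), and the chaperone HYOU1 by 1.59 (SE 0.08, adjusted p = 2.89e-09). Of 16 mitochondrial chaperones and proteases, 10 were higher and 1 was lower, with a median of 0.63. The protease LONP1 differed by 2.24 (SE 0.16, adjusted p = 9.86e-08), the chaperone HSPA9 by 1.72 (SE 0.13, adjusted p = 1.9e-07) and HSPD1 by 1.29 (SE 0.11, adjusted p = 8.5e-07). LONP1 overlaps RPL36 on the other strand, and HSPD1 overlaps HSPE1.

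Nuclear and mitochondrial genes of respiration had medians of opposite sign. Of 41 nuclear genes of oxidative phosphorylation, 21 were higher and 2 lower, with a median of 0.35. CYC1 of complex III differed by 0.89 (SE 0.09, adjusted p = 4.28e-06) and COX8A of complex IV by 0.74 (SE 0.08, adjusted p = 1.27e-05). Of 15 genes encoded by mitochondrial DNA, 7 were lower and none was higher, with a median of -0.47, and the median was -0.37 in B11 and 0.10 in THP1. Without library A of untreated B11, 6 were lower and the median was -0.34. The lower count was 12 when the fit held only the libraries at 0 and 1 ug/ml, and also 12 without library C of B11 at 10 ug/ml. MT-CO1, a subunit of cytochrome oxidase, was at 3578, 4083 and 4117 FPKM in B11 at 1 ug/ml and 7288, 5577 and 6268 FPKM in untreated B11, against 3672, 3509 and 3581 FPKM in THP1 at 1 ug/ml and 3179.6, 3214 and 3252 FPKM in untreated THP1. The treated B11 libraries lay below the untreated ones, treated THP1 lay above untreated THP1 without passing (adjusted p = 0.964), and the corrected difference was -0.85 (SE 0.16, adjusted p = 0.000967). Mitochondrial genes made up 3.93, 3.86 and 4.02% of the FPKM sum in B11 at 1 ug/ml and 5.58, 4.37 and 4.49% in untreated B11, against 3.89, 3.58 and 3.60% in THP1 at 1 ug/ml and 3.44, 3.42 and 3.45% in untreated THP1. This share moves with the list and its part in the result was not tested.

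Many genes of lipid synthesis and glycolysis rose as well. Of 25 genes of cholesterol synthesis and uptake, 24 were tested, 19 were higher and none was lower, with a median of 0.81. The median was 0.71 in B11 and -0.14 in THP1, and without library B of untreated B11 15 were higher. INSIG1, a sterol sensor, was at 106, 109 and 102 FPKM in B11 at 1 ug/ml and 34.4, 31.6 and 36.9 FPKM in untreated B11, against 138, 141 and 136 FPKM in THP1 at 1 ug/ml and 155, 172 and 163 FPKM in untreated THP1. The B11 groups were far apart, treated THP1 lay below untreated THP1 without passing (adjusted p = 0.905), and the corrected difference was 1.83 (SE 0.15, adjusted p = 4.51e-07). DHCR7, the last enzyme of one branch of the pathway, differed by 2.02 (SE 0.25, adjusted p = 2.74e-05), and the thiolase ACAT2 by 1.63 (SE 0.17, adjusted p = 4.54e-06). ACAT2 overlaps TCP1 on the other strand. Mean levels in B11 exceeded those in THP1 for 1 of 24 genes at 1 ug/ml and for 0 of 24 without drug. The sterol regulatory element, searched as TCACNCCAC on both strands, was present in the promoter of 1 of 18 list members, 5.56%, and of 1.39% of all genes with one, which says only that these letters are seldom in the window.

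Among 16 genes of fatty acid synthesis and LXR targets, 15 were tested, 7 were higher and 2 lower, with a median of 0.63. The desaturases led them. FADS2 was at 216, 245 and 227 FPKM in B11 at 1 ug/ml and 32.8, 32.99 and 29.5 FPKM in untreated B11, with overlapping THP1 groups, and differed by 2.83 (SE 0.15, adjusted p = 4.81e-09). SCD differed by 2.24 (SE 0.13, adjusted p = 1.3e-08) and the synthase FASN by 1.74 (SE 0.15, adjusted p = 7.64e-07). FADS2 overlaps FADS1 on the other strand and FEN1, a replication gene, on its own. Of 31 glycolysis and hypoxia genes, 29 were tested, 17 were higher and none was lower, with a median of 0.84. LDHA, which makes lactate, was at 644, 669.9 and 593 FPKM in B11 at 1 ug/ml and 212, 186 and 195 FPKM in untreated B11, and differed by 1.80 (SE 0.18, adjusted p = 4.25e-06). The glucose carrier SLC2A1 differed by 1.18 (SE 0.12, adjusted p = 4.41e-06) and the collagen hydroxylase P4HA1, a hypoxia target, by 1.73 (SE 0.18, adjusted p = 5.77e-06). GAPDH, often taken as a constant reference, differed by 0.91 (SE 0.09, adjusted p = 1.59e-06).

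Interferon-stimulated genes, which respond to a factor that holds STAT2 and IRF9 and encode antiviral proteins, rose in many members in B11, while the THP1 median lay below 0. Of 44 genes, 41 were tested, 27 were higher and 1 was lower, with a median of 1.06 in the difference, 0.94 in B11 and -0.14 in THP1. ISG15, a ubiquitin-like modifier, was at 140.2, 161 and 133 FPKM in B11 at 1 ug/ml and 41.8, 36.7 and 37.7 FPKM in untreated B11, against 27.8, 28.9 and 26.6 FPKM in THP1 at 1 ug/ml and 29.3, 32.3 and 33.9 FPKM in untreated THP1. Treated B11 exceeded every other library, treated THP1 lay below untreated THP1 without passing (adjusted p = 0.934), and the difference was 2.06 (SE 0.15, adjusted p = 9.78e-08). IFI6, an inhibitor of viral replication, was at 220.2, 237 and 207 FPKM in B11 at 1 ug/ml and 66.8, 58.9 and 73.7 FPKM in untreated B11, against 85.9, 79.4 and 79.4 FPKM in THP1 at 1 ug/ml and 111, 111 and 110.4 FPKM in untreated THP1. Its difference of 2.16 (SE 0.10, adjusted p = 2.13e-09) held 1.72 in B11 and -0.44 in THP1, where the change did not pass (adjusted p = 0.0768). IFI27, the list member with the highest difference, was at 80.3, 95.8 and 70.2 FPKM in B11 at 1 ug/ml and 4.74, 6.36 and 1.61 FPKM in untreated B11, against widely spread THP1 values of 1.67, 11.4 and 12.2 FPKM at 1 ug/ml and 13.8, 5.80 and 13.7 FPKM without drug, and differed by 4.70 (SE 0.77, adjusted p = 0.000369). OASL and IFIT1 of the antiviral response differed by 2.75 (SE 0.25, adjusted p = 1.43e-06) and 2.48 (SE 0.25, adjusted p = 3.28e-06), and IFIT1 overlaps LIPA on the other strand. STAT2, a subunit of the interferon-activated factor, was the only member that was lower, at -1.12 (SE 0.12, adjusted p = 6.52e-06), with 89.3, 83.7 and 81.95 FPKM in B11 at 1 ug/ml and 189, 174 and 171 FPKM in untreated B11. Mean levels in B11 exceeded those in THP1 for 39 of 41 genes at 1 ug/ml and for 22 of 41 without drug.

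The interferon-stimulated response element was searched as GAAA, any 2 bases and GAAA, on both strands. It was present in the promoter of 22 of the 31 list members with a listed promoter, 71%, and of 1195 of all 27305 genes, 4.38%. ISG15, IFI6 and IFIT1 are shown since they hold repeated copies, in capitals. They lie at chr1:1013354-1013429 on the plus strand, chr1:27672246-27672378 on the minus strand and chr10:89392477-89392559 on the plus strand of GRCh38.p14 (RefSeq). In ISG15 the copies overlap, and in IFIT1 they read on the other strand.
ISG15: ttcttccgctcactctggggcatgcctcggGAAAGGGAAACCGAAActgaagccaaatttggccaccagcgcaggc
IFI6: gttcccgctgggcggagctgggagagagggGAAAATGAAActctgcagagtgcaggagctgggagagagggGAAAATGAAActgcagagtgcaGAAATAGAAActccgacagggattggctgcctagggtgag
IFIT1: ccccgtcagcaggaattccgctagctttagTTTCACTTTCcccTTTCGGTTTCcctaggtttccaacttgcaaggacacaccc

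The inflammatory list had the widest gap of all lists between the median of the corrected difference and that of B11 alone. Of 30 chemokines, cytokines and genes of the NF-kB pathway, 26 were tested, 14 were higher and 1 was lower, with a median of 0.79. In B11 alone the median was 0.07, with 8 higher and 3 lower, where 19.8% and 17.3% of all genes were. In THP1 the median was -0.40, with none called, where 2 of all 17555 genes passed. In the corrected difference the count of higher genes was 6 when genes had to average 5 FPKM, a filter that can leave fewer members to test. TNF, the founding cytokine of its family at chr6:31575567-31578336 on the plus strand, was at 23.5, 22.6 and 24.6 FPKM in B11 at 1 ug/ml and 0.192, 0.612 and 0.711 FPKM in untreated B11, against 6.93, 6.04 and 6.03 FPKM in THP1 at 1 ug/ml and 16.3, 17.1 and 17.04 FPKM in untreated THP1. Treated B11 was the highest and untreated B11 the lowest group, and treated THP1 lay below untreated THP1 in all libraries. The corrected difference of TNF was 5.33 (SE 0.30, adjusted p = 8.18e-09), with 4.05 in B11 and -1.28 in THP1, where it did not pass (adjusted p = 0.0768). CCL5, a chemokine for lymphocytes and monocytes, was at 238, 235 and 240.4 FPKM in B11 at 1 ug/ml and 39.3, 46.3 and 46.8 FPKM in untreated B11, and differed by 2.61 (SE 0.11, adjusted p = 9.02e-10). CCL2, which attracts monocytes, was at 1.83, 2.12 and 2.18 FPKM in B11 at 1 ug/ml and 0, 0 and 0.152 FPKM in untreated B11, against 3.79, 2.94 and 4.04 FPKM in THP1 at 1 ug/ml and 10.2, 9.79 and 9.96 FPKM in untreated THP1. Its difference of 2.80 (SE 0.34, adjusted p = 2.01e-05) held 1.54 in B11 and -1.27 in THP1, which again did not pass (adjusted p = 0.106), and treated B11 remained below treated THP1. CCL3 had the same form, at 3.00 (SE 0.41, adjusted p = 7.98e-05), with 1.68 in B11 and -1.32 in THP1. TNFAIP2 was the lower gene, at -1.03 (SE 0.09, adjusted p = 1.2e-06).

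Immediate early genes shared this form in part. Of 20 genes, 18 were tested, 11 were higher and 2 lower, with a median of 0.39 in the difference, 0.28 in B11 and -0.22 in THP1. FOS, a subunit of the factor AP-1, was at 37.3, 48.6 and 37.7 FPKM in B11 at 1 ug/ml and 18.2, 13.7 and 18.9 FPKM in untreated B11, against 51.1, 38.6 and 39.2 FPKM in THP1 at 1 ug/ml and 61.5, 68.8 and 70.6 FPKM in untreated THP1, and differed by 1.87 (SE 0.23, adjusted p = 2.88e-05). The nuclear receptor NR4A1 differed by 2.49 (SE 0.31, adjusted p = 3.27e-05), and the Krüppel-like factors KLF2 and KLF6 by 2.38 (SE 0.23, adjusted p = 2.83e-06) and 1.83 (SE 0.28, adjusted p = 0.000167).

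**Figure D4:**
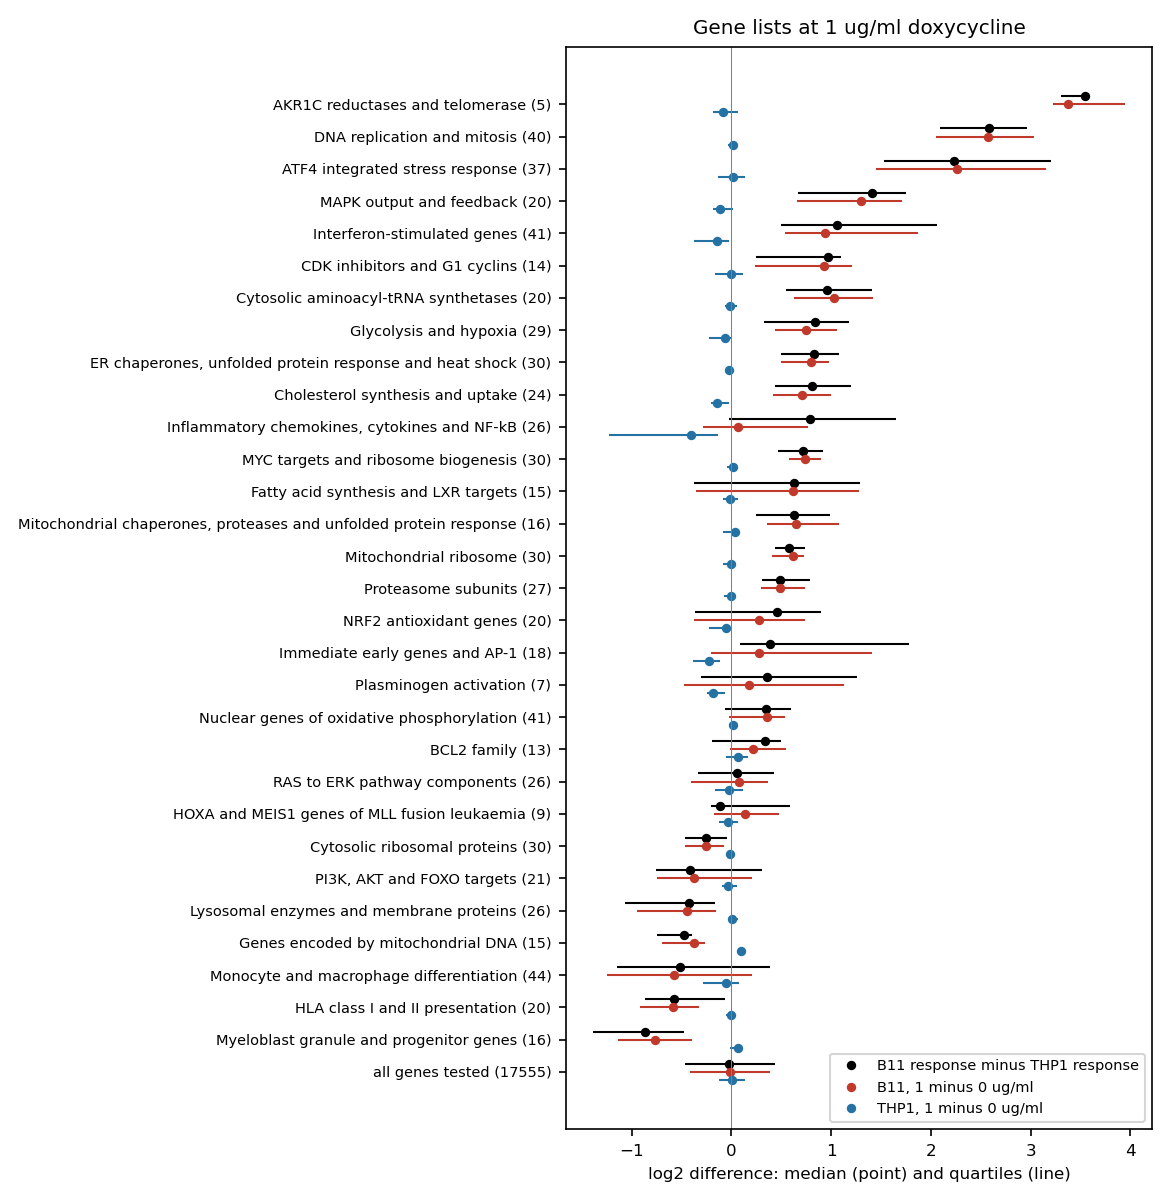
Median (point) and quartiles (line) of the log2 difference over the tested members of 30 lists and over all 17555 genes, for the corrected difference, the B11 arm and the THP1 arm at 1 ug/ml. The corrected and B11 points lie close together in most lists, and the THP1 points lie near 0, with the inflammatory list furthest below it at -0.40.

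Many genes of the mature monocyte and of the granule fell. Of 49 genes of monocyte and macrophage differentiation, 44 were tested, 21 were lower and 8 higher, with a median of -0.51. S100A8, a subunit of calprotectin at chr1:153390032-153391188 on the minus strand, was at 4.19, 3.15 and 5.98 FPKM in B11 at 1 ug/ml and 118, 86.6 and 134 FPKM in untreated B11, against 376, 414 and 375 FPKM in THP1 at 1 ug/ml and 372, 438 and 442 FPKM in untreated THP1. Both B11 groups lay below every THP1 library, treated B11 by far the lowest, and the difference was -4.30 (SE 0.27, adjusted p = 2.5e-08), the most negative among the genes eligible to be named by size. Its partner S100A9 differed by -3.53 (SE 0.24, adjusted p = 6.13e-08). LYZ, which encodes lysozyme, was at 463, 464 and 419 FPKM in B11 at 1 ug/ml and 3075, 2258 and 3009 FPKM in untreated B11, against 758, 803 and 752 FPKM in THP1 at 1 ug/ml and 684, 767 and 743 FPKM in untreated THP1. Untreated B11 was here the highest group and treated B11 the lowest, and the difference was -2.69 (SE 0.16, adjusted p = 1.63e-08). CSF1R, a growth factor receptor of macrophages, differed by -2.14 (SE 0.14, adjusted p = 5.59e-08), progranulin (GRN) by -2.06 (SE 0.09, adjusted p = 9.97e-10) and the adaptor TYROBP by -1.81 (SE 0.10, adjusted p = 6.27e-09). LYZ, CSF1R and CD68 are also among the markers of the line, whose summed level is given above. Against these, ITGAM, which encodes the integrin CD11b, differed by 2.60 (SE 0.28, adjusted p = 8.26e-06), CD14, a receptor for lipopolysaccharide, by 2.27 (SE 0.22), and SIGLEC1, which interferon also induces, by 2.12 (SE 0.24).

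Of 18 myeloblast granule and progenitor genes, 16 were tested, 13 were lower and none was higher, with a median of -0.87. CFD, which encodes complement factor D, was at 886, 1073 and 1088 FPKM in B11 at 1 ug/ml and 4187, 4529.7 and 4752 FPKM in untreated B11, against 683, 680.1 and 582 FPKM in THP1 at 1 ug/ml and 715, 782 and 739 FPKM in untreated THP1, and differed by -1.94 (SE 0.12, adjusted p = 2.9e-08). The granule proteins AZU1, RNASE2 and ELANE differed by -1.42 (SE 0.07, adjusted p = 4.7e-09), -1.38 (SE 0.09, adjusted p = 4.92e-08) and -0.94 (SE 0.08, adjusted p = 6.55e-07). Of 26 lysosomal genes, 14 were lower and 1 was higher, with a median of -0.42, among them PSAP, the precursor of the saposins, at -1.59 (SE 0.12, adjusted p = 2.25e-07), and the membrane protein LAMP2 at -1.08 (SE 0.08, adjusted p = 8.05e-08). Of 20 genes of HLA class I and II presentation, 11 were lower and 1 was higher, PSMB8, with a median of -0.57. B2M, the light chain of class I, was at 3265, 3050.5 and 3006 FPKM in B11 at 1 ug/ml and 6172, 6493 and 6987 FPKM in untreated B11, with overlapping THP1 groups, and differed by -1.08 (SE 0.10, adjusted p = 1.06e-06). HLA-DRA of class II differed by -1.95 (SE 0.28, adjusted p = 0.000107), and the class II protease CTSS by -1.48 (SE 0.12, adjusted p = 2.64e-07). HLA genes resemble one another, and how their reads were divided is uncertain.

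By size alone, the highest difference among the genes eligible to be named was in AKR1C2, an aldo-keto reductase of steroid metabolism at chr10:4987400-5018031 on the minus strand. AKR1C2 was at 139, 137 and 137 FPKM in B11 at 1 ug/ml and 0.409, 0 and 0.692 FPKM in untreated B11, against 1.13, 0.279 and 0.441 FPKM in THP1 at 1 ug/ml and 0.918, 1.21 and 0.627 FPKM in untreated THP1. Only treated B11 expressed it above 2 FPKM among these 12 libraries, and the difference was 6.97 (SE 0.39, adjusted p = 8.18e-09). Its neighbours AKR1C3 and AKR1C1 differed by 3.56 (SE 0.56, adjusted p = 0.000235) and 3.55 (SE 0.43, adjusted p = 2.16e-05), and the copies are close enough that reads may be split between them. AKR1B1 differed by 1.59 (SE 0.13, adjusted p = 4.52e-07) and TERT, the catalytic subunit of telomerase, by 3.30 (SE 0.27, adjusted p = 4.51e-07). All 5 tested genes of a list of 6 that holds these were higher, where 14.3% of all genes were, with a median of 3.55. The list joins reductases with telomerase and was written with earlier results of these data known. Its count and median therefore add no support. TERT was at 14.9, 14.7 and 13.6 FPKM in B11 at 1 ug/ml and 1.15, 0.409 and 0.485 FPKM in untreated B11, against 1.52, 1.85 and 1.25 FPKM in THP1 at 1 ug/ml and 2.54, 1.38 and 1.27 FPKM in untreated THP1. S100P, a calcium-binding protein, was at 140.4, 132 and 146 FPKM in B11 at 1 ug/ml and 7.15, 4.26 and 4.95 FPKM in untreated B11 and differed by 4.75 (SE 0.27, adjusted p = 8.6e-09). G0S2, an inhibitor of fat breakdown, differed by 4.34 (SE 0.36, adjusted p = 4.09e-07), and TIMP3, an inhibitor of metalloproteases, by 4.23 (SE 0.23, adjusted p = 5.76e-09). TIMP3 reached 35.3, 36.2 and 36.1 FPKM in B11 at 1 ug/ml, close to the 36.04, 37.2 and 35.9 FPKM of THP1 at 1 ug/ml, while untreated B11 had 0.641, 1.69 and 1.50 FPKM. U2AF1, a splicing factor with a near-identical copy in GRCh38, was listed at 11.7, 24.6 and 27.3 FPKM in B11 at 1 ug/ml, 0.696, 7.09 and 0.654 FPKM in untreated B11, 0.509, 0.173 and 0.309 FPKM in THP1 at 1 ug/ml and 12.8, 0.415 and 35.5 FPKM in untreated THP1. It jumped between libraries of 1 group, its difference of 5.64 (SE 1.57, adjusted p = 0.0152) is uncertain, and it did not pass without libraries B and C of treated B11 (adjusted p = 0.123).

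At the other end, after S100A8 and S100A9, came PTGDS, a prostaglandin D synthase. PTGDS was at 7.54, 5.46 and 4.60 FPKM in B11 at 1 ug/ml and 96.4, 74.4 and 86.9 FPKM in untreated B11, against 12.6, 9.07 and 8.38 FPKM in THP1 at 1 ug/ml and 12.2, 13.1 and 11.2 FPKM in untreated THP1. Untreated B11 alone was high, and the difference was -3.40 (SE 0.28, adjusted p = 4.78e-07). OLFML3, a secreted olfactomedin protein, differed by -3.19 (SE 0.20, adjusted p = 2.25e-08), the diamine oxidase AOC1 by -2.94 (SE 0.14, adjusted p = 2.07e-09), the haematopoietic factor NFE2 by -2.54 (SE 0.12, adjusted p = 2.04e-09), the carboxylesterase CES1 by -2.54 (SE 0.11, adjusted p = 9.02e-10) and the protease CAPN3 by -2.49 (SE 0.27, adjusted p = 6.5e-06). AOC1 was at 14.5, 18.3 and 15.8 FPKM in B11 at 1 ug/ml and 160.2, 124 and 135 FPKM in untreated B11, and CES1 at 82.8, 96.6 and 95.1 FPKM in B11 at 1 ug/ml and 547, 540.4 and 551 FPKM in untreated B11. Both were, like PTGDS, highest in untreated B11 among the 4 groups. ALG13-AS1 and the kinase gene MAP3K12 differed by -2.73 (SE 0.88) and -2.77 (SE 0.78). Both overlap a protein-coding gene on the other strand, and ALG13-AS1 lost its call in 11 of 31 alternatives.

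The remaining lists were mixed. Over all genes tested 25.9% were called, 14.3% higher and 11.6% lower. The total counts called in the PI3K and HOXA lists lie near that share and are not read as a response of these lists. Of 20 NRF2 antioxidant genes, 9 were higher and 4 lower, with a median of 0.46 that was 0.06 over the 17 members that averaged 5 FPKM, from the quinone reductase NQO1 at 1.72 (SE 0.22, adjusted p = 4.53e-05) and malic enzyme ME1 at 1.55 (SE 0.18, adjusted p = 1.36e-05) down to the ferritin light chain FTL at -0.69 (SE 0.09, adjusted p = 4.86e-05). Of 9 plasminogen activation genes, 7 were tested and 3 were higher, SERPINE2 at 2.49 (SE 0.30, adjusted p = 1.84e-05), the annexin partner S100A10 at 1.29 (SE 0.16, adjusted p = 3.73e-05) and the urokinase receptor PLAUR at 1.23 (SE 0.15, adjusted p = 2.27e-05). SERPINB2, an inhibitor of plasminogen activators, was lower, at -1.71 (SE 0.12, adjusted p = 1.13e-07). Of 15 genes of the BCL2 family, 13 were tested, 5 were higher and 1 was lower, with a median of 0.34. The higher count was 3 without library B of untreated THP1, library A of THP1 at 1 ug/ml or library B of B11 at 1 ug/ml. Their extremes were the BH3-only genes PMAIP1 at 1.79 (SE 0.16, adjusted p = 1.22e-06) and BMF at -1.61 (SE 0.25, adjusted p = 0.000245). Of 21 targets of PI3K, AKT and FOXO, 4 were lower, or 7 without library A of THP1 at 1 ug/ml, and 1 was higher, with a median of -0.41, among them TXNIP, which restrains glucose uptake, at -0.81 (SE 0.13, adjusted p = 0.00029). Of 11 genes of the HOXA cluster, MEIS1 and their partners in leukaemias with MLL fusions, 9 were tested, MEF2C was higher at 0.60 (SE 0.12, adjusted p = 0.00184) and HOXA11 lower at -0.37 (SE 0.12, adjusted p = 0.0347). The HOXA list median of -0.11 changed sign in 8 of 31 alternatives, and HOXA11 lost its call in 13.

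Whether the corrected response differed at the higher dose was tested as B11 at 10 against 1 ug/ml minus THP1 at 10 against 1 ug/ml. The untreated libraries do not enter this difference itself, but they do enter the shared spread behind its SE and p-values. The difference passed at 814 genes, 4.64%, of which 395 (2.25%) were higher and 419 (2.39%) lower at 10 ug/ml. The count was 502 without library C of B11 at 1 ug/ml, and 232 without libraries B and C. NRAS was at 19.8, 21.98 and 21.1 FPKM without drug, 24.4, 23.7 and 23.3 FPKM at 1 ug/ml and 27.99, 27.7 and 28.2 FPKM at 10 ug/ml in B11. Its corrected difference was 0.35 (SE 0.10, adjusted p = 0.0159) at 10 ug/ml, which passed, but the step between the doses was 0.17 (SE 0.10, adjusted p = 0.39), which did not. The cell cycle list had medians of 2.52 at 10 and 2.58 at 1 ug/ml, and no member of it passed the test of the change, which does not show that the doses act alike. For MAPK output the medians were 1.46 at 10 and 1.41 at 1 ug/ml, with EGR1 higher at 10 ug/ml by 1.10 (SE 0.16, adjusted p = 0.0014) and SPRY2 lower by -0.53 (SE 0.14, adjusted p = 0.048).

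Many interferon and ATF4 genes were lower at 10 than at 1 ug/ml in the corrected response, and most cholesterol genes were higher. Of 41 interferon genes, 25 were lower and none was higher in the step from 1 to 10 ug/ml, with a median of -1.34. ISG15 was at 41.8, 36.7 and 37.7 FPKM without drug, 140.2, 161 and 133 FPKM at 1 ug/ml and 37.8, 42.3 and 33.6 FPKM at 10 ug/ml in B11. In THP1 it was at 29.3, 32.3 and 33.9 FPKM without drug, 27.8, 28.9 and 26.6 FPKM at 1 ug/ml and 30.7, 30.03 and 25.2 FPKM at 10 ug/ml. Only the B11 libraries at 1 ug/ml stood apart, and the step was -1.94 (SE 0.15, adjusted p = 4.64e-06). The corrected response of the list at 10 ug/ml had 4 genes higher and 6 lower, where 29.8% of all genes were called in either direction, and a median of -0.17. IFI6 had a step of -2.43 (SE 0.10, adjusted p = 1.07e-08) and IFIT1 of -2.57 (SE 0.25, adjusted p = 3.87e-05). Of 37 ATF4 genes, 15 were lower and none was higher in the step, with a median of -1.02 and SESN2 at -2.02 (SE 0.18, adjusted p = 2.45e-05). TRIB3 was at 12.03, 22.6 and 15.03 FPKM without drug, 264, 254 and 271 FPKM at 1 ug/ml and 97.9, 95.5 and 104 FPKM at 10 ug/ml in B11, and its step was -1.95 (SE 0.21, adjusted p = 0.000115). Of 24 cholesterol genes, 19 were higher and none was lower in the step, with a median of 1.01. The B11 libraries at 10 ug/ml were split on this list. Library C differed from the mean of A and B by a median of -0.36, and 19 of 24 genes were lowest there. Library B differed from the mean of A and C by 0.24. The step without library C was not given by list. INSIG1 was at 34.4, 31.6 and 36.9 FPKM without drug, 106, 109 and 102 FPKM at 1 ug/ml and 136, 169.5 and 118 FPKM at 10 ug/ml in B11. In THP1 it was at 155, 172 and 163 FPKM without drug, 138, 141 and 136 FPKM at 1 ug/ml and 75.3, 90.2 and 75.6 FPKM at 10 ug/ml. Part of its step of 1.19 (SE 0.15, adjusted p = 0.000492) thus lay in THP1, where the level was lower at 10 ug/ml in all 3 libraries. Of 29 glycolysis and hypoxia genes, 7 were higher and none was lower in the step. Library C of B11 at 10 ug/ml stood apart here too, by a median of -0.34, with 24 of 29 genes lowest there. Of 44 monocyte genes 2 were higher and 9 lower in the step.

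**Figure D5:**
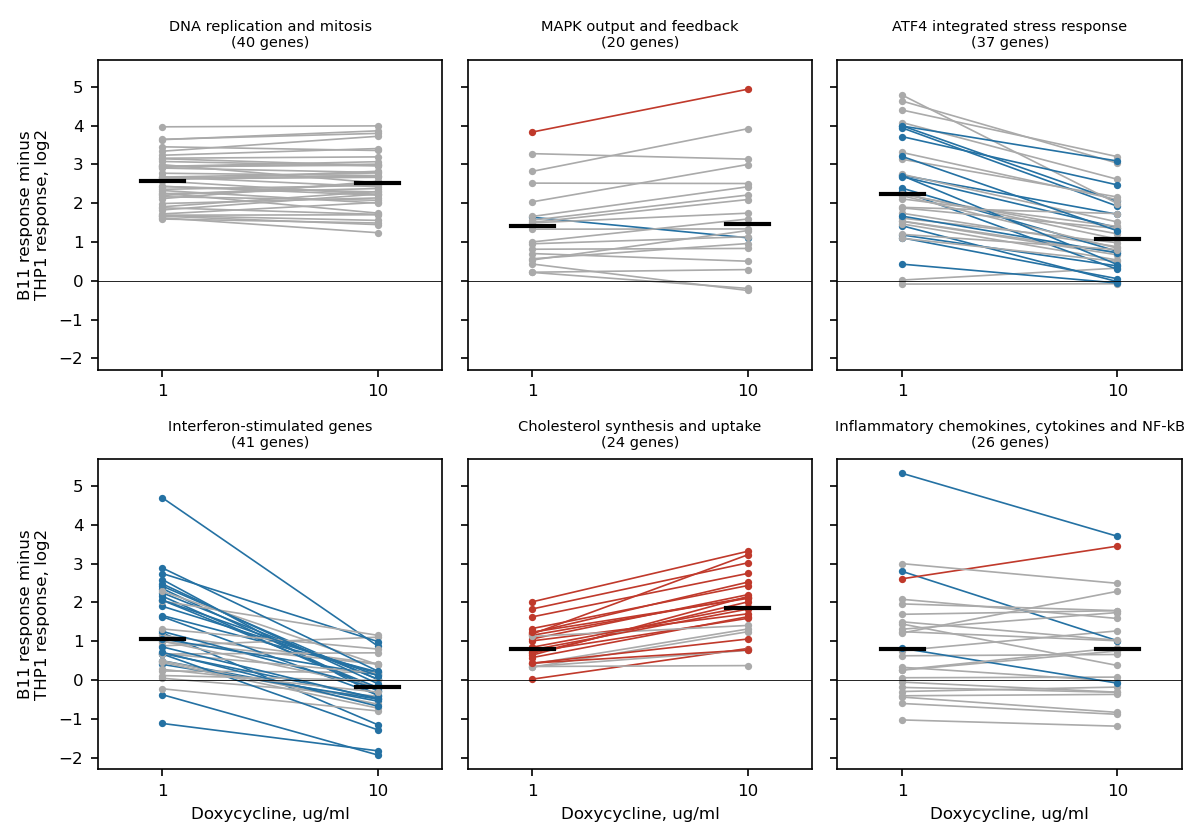
Corrected log2 difference of each tested member of 6 lists at 1 and at 10 ug/ml, joined by a line that is red where the step was called higher at 10 ug/ml, blue where it was called lower and grey otherwise, with black bars at the medians. Cell cycle lines run nearly level, with medians of 2.52 at 10 and 2.58 at 1 ug/ml, most interferon lines run down, with medians of -0.17 at 10 and 1.06 at 1 ug/ml, and most cholesterol lines run up, with medians of 1.86 at 10 and 0.81 at 1 ug/ml.

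Single genes with the largest steps included IFI27, at -3.82 (SE 0.77, adjusted p = 0.0115), the antiviral sensor OAS3 at -2.99 (SE 0.36, adjusted p = 0.000321), SIGLEC1 at -2.83 (SE 0.24, adjusted p = 1.6e-05) and G0S2 at -3.34 (SE 0.36, adjusted p = 0.000113). G0S2 was at 1.71, 6.70 and 3.42 FPKM without drug, 84.1, 77.4 and 80.9 FPKM at 1 ug/ml and 9.40, 12.4 and 9.64 FPKM at 10 ug/ml in B11, high at the middle dose only. PPP1R27, a regulatory subunit of a protein phosphatase, was at 290.4, 228 and 302 FPKM without drug, 568, 599.8 and 591 FPKM at 1 ug/ml and 2228, 2193 and 2286 FPKM at 10 ug/ml in B11 and stayed between 182 and 207 FPKM in THP1. The 3 groups of B11 did not overlap and ran in the order of dose, with a corrected difference of 1.05 (SE 0.11, adjusted p = 8.22e-06) at 1 ug/ml and a step of 1.94 (SE 0.11, adjusted p = 2.56e-07). SERPINB2 was at 67.9, 62.04 and 83.5 FPKM without drug, 19.3, 20.7 and 19.7 FPKM at 1 ug/ml and 88.6, 87.4 and 90.9 FPKM at 10 ug/ml in B11, lowest at the middle dose, with a step of 1.89 (SE 0.12, adjusted p = 8.12e-07). SERPINB10, which overlaps it on the same strand, had a step of 1.77 (SE 0.23, adjusted p = 0.000558). The sterol oxidase MSMO1 had a step of 2.04 (SE 0.33, adjusted p = 0.00241) and AKR1C1 of 1.94 (SE 0.43, adjusted p = 0.0175).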

How the data were processed

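RNA of 18 plates, 2 lines at 3 doses of doxycycline with 3 plates each, was sequenced by standard Illumina libraries, per the labels. Reads were aligned with HISAT2 and quantified with Cuffnorm on GRCh38, per the submitters' processing notes. No source used here gives versions, the strand setting or the scaling option. The authors deposited 1 table of gene IDs by library. Its header names no unit, and the values were read as FPKM, per the submitters' processing notes and the range of the values. Of 60658 IDs, 57047 had a name in GENCODE release 29, and unnamed IDs were tested but not named. No counts were given, so depth was estimated from the ratios of the lowest values between libraries, in genes with 1 transcript, and relative depth was 0.843 to 1.22.

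Values were taken as log2(FPKM + 1) and fitted with limma 3.58.1 in R 4.3.3 as 6 group means over 18 libraries, with 12 residual degrees of freedom and a trend in the moderation. The same fit gave each contrast, with Benjamini-Hochberg adjustment over 17555 genes and a threshold of 0.05. A fold change on this scale understates that of low genes. The filter of 1 FPKM in 3 libraries admitted 775 genes at its edge, and 1081 genes with 2 such libraries were not tested. On simulated data with 200 changed genes among 17555, 11.9% were called at a log2 change of 0.5, 50.7% at 1 and 89.4% at 2, and 2.88% of calls were false. The changed genes were drawn from those that averaged at least 5 FPKM. Noise was normal and independent, with the same spread in all groups for a given gene. Far fewer genes changed than the 25.9% called in the data, so these rates do not carry over to the comparison.

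Named genes are NRAS, the 12 highest and 12 lowest called differences with a group mean of at least 5 FPKM, up to 5 members per list with the smallest p, called genes whose THP1 change was called and larger, and the 5 highest and 5 lowest steps with dose. Clone names, unnamed IDs, numbered pseudogenes and small RNAs were not eligible. List members named besides, to complete a small count, to contrast with it or for a promoter, were chosen after their values were seen, among them ETV4, ETV5, HRAS, CD14, ATF4, ASNS and MCM6. Of 789 entries in 33 lists, 743 were tested. Some listed or eligible items are not reported here. The comparison, its genes and the lists were chosen with earlier results of these data known. Promoter sequences and starts are from RefSeq (GRCh38.p14). Libraries carry letters A to C in each group, and the letters were not used as a block. The alternatives were other pseudocounts, filters, scalings, moderation and samples, each library left out in turn, and the letter as a block.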

Additional observations from a re-analysis of the deposited data

Results flagged for a closer look

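The response to 1 ug/ml doxycycline differed between the lines at 4544 genes, and the step from 1 to 10 ug/ml differed at 814, both by limma on the difference itself. IGFBP3 differed by 2.16 at 1 ug/ml, with the change in THP1. Among genes named by dose, the step in B11 minus that in THP1 was -6.56 for U2AF1, whose reads may be shared with a near-identical copy, -3.82 for IFI27, -3.34 for G0S2, -2.99 for OAS3 and -2.83 for SIGLEC1. On the side of higher steps it was 2.04 for MSMO1, 1.94 for AKR1C1, 1.94 for PPP1R27, 1.89 for SERPINB2 and 1.77 for SERPINB10.

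An unnamed gene ID that was not part of any named result stood at 76850 FPKM in library B and 42500.0 FPKM in library C of B11 at 1 ug/ml and near 0 in the other libraries. This ID did not meet the filter and was not tested in the main fit. It did enter the fit with no filter and the library totals of TPM, and TPM without IDs that reach 10000 FPKM left it out of those totals. Its part in the comparisons was not tested beyond these settings and the fits without both libraries.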

How the results depend on the processing

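Over 31 alternatives the corrected difference passed at 3900 to 4624 genes under other settings and at 3928 to 4583 with 1 library left out, against 4544. It passed at 3060 without libraries B and C of treated B11 (1 ug/ml), a fit that leaves 1 library in that group and assumes that it varies like the others. In this fit B11 alone gave 4071 genes, THP1 0 and the dose step 232. With 1 library left out B11 gave 5551 to 6544 genes, THP1 0 to 6, and the dose step 502 to 889. The THP1 count of 2 was 16 with a pseudocount of 5, 23 with no filter, 1 with a mean of at least 5 FPKM, 1 with median of ratios, 1 with TPM, 8 with TPM without IDs that reach 10000 FPKM, 7 with no trend, 4 with only the 12 libraries at 0 and 1 ug/ml and 10 with protein-coding genes only. The cause was not tested. With the replicate block the counts were 4383 for the corrected difference, 6377 for B11, 0 for THP1 and 728 for the step. Same-letter libraries did not deviate together over all genes tested (45 pairs, r of -0.07 to 0.092). These correlations gave no sign that the letters pair the libraries, but they cannot show that no pairing exists. Why calls were lost with the block was not tested. With TPM 63.5% of calls were higher, and 66% without IDs that reach 10000 FPKM, against 55.2%. In B11 the share was 60.3% with TPM and 63.9% without those IDs, against 53.3%. The median of all genes was -0.0184 as deposited, 0.0486 with TPM and 0.0767 with TPM without those IDs. A pseudocount of 5 lowered the medians of the MAPK, AKR1C and NRF2 lists to 0.60, 1.81 and 0.29 and gave -0.51 for the granule list. Of 180 named genes 177 were called, 168 of them in every alternative, and none reversed. Most were named for a large difference or a small p in the main fit on these same libraries. That most calls lasted is thus partly a result of the choice and does not carry over to other genes. The other 9 lost the call in at least 1, ALG13-AS1 in 11, HOXA11 in 13 and RASGRP2 in 10. The step could not be fitted with the 12 libraries. Depth was estimated and not given, so low genes near 1 FPKM rest on few fragments.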
